A study of Rattus norvegicus with 18 samples.

Results

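A set of 6 genes of inflammation and leukocyte adhesion were followed in the hearts of rat offspring exposed to cannabidiol before birth: Ccl2, Icam1, Vcam1, Cd68, Nfkbia and Stat3. They were chosen by a list of Ensembl identifiers, 6 of the 30560 genes in the deposited table, and all 6 were among the 17009 genes with enough counts to be tested. The symbols are those given with that list. RefSeq holds all 6 symbols, but its gene table carries an Ensembl identifier for 0 of 47357 genes, so the pairing of identifier and symbol was not checked here. The identifiers are ENSRNOG00000007159 for Ccl2, ENSRNOG00000020679 for Icam1, ENSRNOG00000014333 for Vcam1, ENSRNOG00000037563 for Cd68, ENSRNOG00000007390 for Nfkbia and ENSRNOG00000019742 for Stat3.

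Bulk RNA sequencing was done on hearts of male Wistar rats aged 3 weeks whose mothers had been given vehicle (7 hearts), cannabidiol at 3 mg/kg/day (CBD3, 6 hearts) or cannabidiol at 30 mg/kg/day (CBD30, 5 hearts) during gestation. Cannabidiol is a non-intoxicating compound of the cannabis plant. The series title places impaired cardiac function in male offspring, and the comparisons ask whether either dose was followed by a change in cardiac gene expression. The labels do not say which hearts came from the same litter, so p-values treat the hearts as independent although the mothers were dosed, and they measure only the spread between these hearts. Libraries held 44321480 to 80451013 counts in vehicle, 56992503 to 89240727 in CBD3 and 44127009 to 82220752 in CBD30 hearts. Hearts are named here by group and by the code in their column name, such as vehicle 1.1, whose meaning the labels do not give. Codes ending in 1 had totals of 63672078 to 89240727 counts and those ending in 2 had 44127009 to 67302419. On the first principal component of all tested genes except these 6 (29.8% of the variance), vehicle 1.1, vehicle 2.1 and CBD30 2.1 lay farthest out, at -57.9, -65.0 and 65.4. The sign of a component is arbitrary, and here it was set so that the vehicle mean was negative. The tissue could not be checked against heart or leukocyte markers, because the table pairs no identifier with a symbol.

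In inflammation, cytokine signals release the transcription factor NF-kB from its inhibitor IkB-alpha, the product of Nfkbia, and activate Stat3, which carries signals of interleukin-6 type cytokines to the nucleus. NF-kB raises transcription of Ccl2, a chemokine that draws CCR2-bearing monocytes, of Icam1 and Vcam1, the endothelial receptors to which leukocyte integrins bind, and of Nfkbia itself, which closes a feedback loop. Cd68 encodes a lysosomal membrane protein abundant in macrophages, including those resident in the heart. In bulk tissue, fewer cells of a type and less RNA per cell cannot be told apart.

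No difference between groups passed the test for any of the 6 genes, at either dose. At an adjusted p under 0.05 (edgeR quasi-likelihood test, Benjamini-Hochberg over 17009 genes), 0 of 6 members were called for CBD30 against vehicle, where 0% of all tested genes were called, and 0 of 6 had an unadjusted p under 0.05, where the share of all tested genes was 16.4%. For CBD3 against vehicle the counts were 0 of 6 called (0% of all tested genes) and 0 of 6 at an unadjusted p under 0.05 (8.92% of all tested genes). For CBD30 against CBD3 they were also 0 of 6 (0%) and 0 of 6 (1.73%). DESeq2 called 0 of 6 in each comparison too, where it called 0.839% of the genes it tested in the first of these comparisons, 0.107% in the second and 0.00411% in the third. With limma voom 0 of 6 were called in each, and 0% of all tested genes. For every gene and every pair of groups the values overlapped, and 0.629%, 0.194% and 0.218% of all tested genes did not overlap in those 3 comparisons, in the same order. For CBD30 against vehicle 3 members had a log2 fold change above 0 (46.8% of all tested genes) and 3 below, with a median of 0.10 against -0.021 over all tested genes. For CBD3 against vehicle 4 were above 0 (46.6% of all tested genes), with a median of 0.024 against -0.020. For CBD30 against CBD3 4 were above 0 (53.1%), with a median of 0.13 against 0.010. Both doses are compared with the same 7 vehicle hearts, so their values are not independent of each other.

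**Figure D1:**
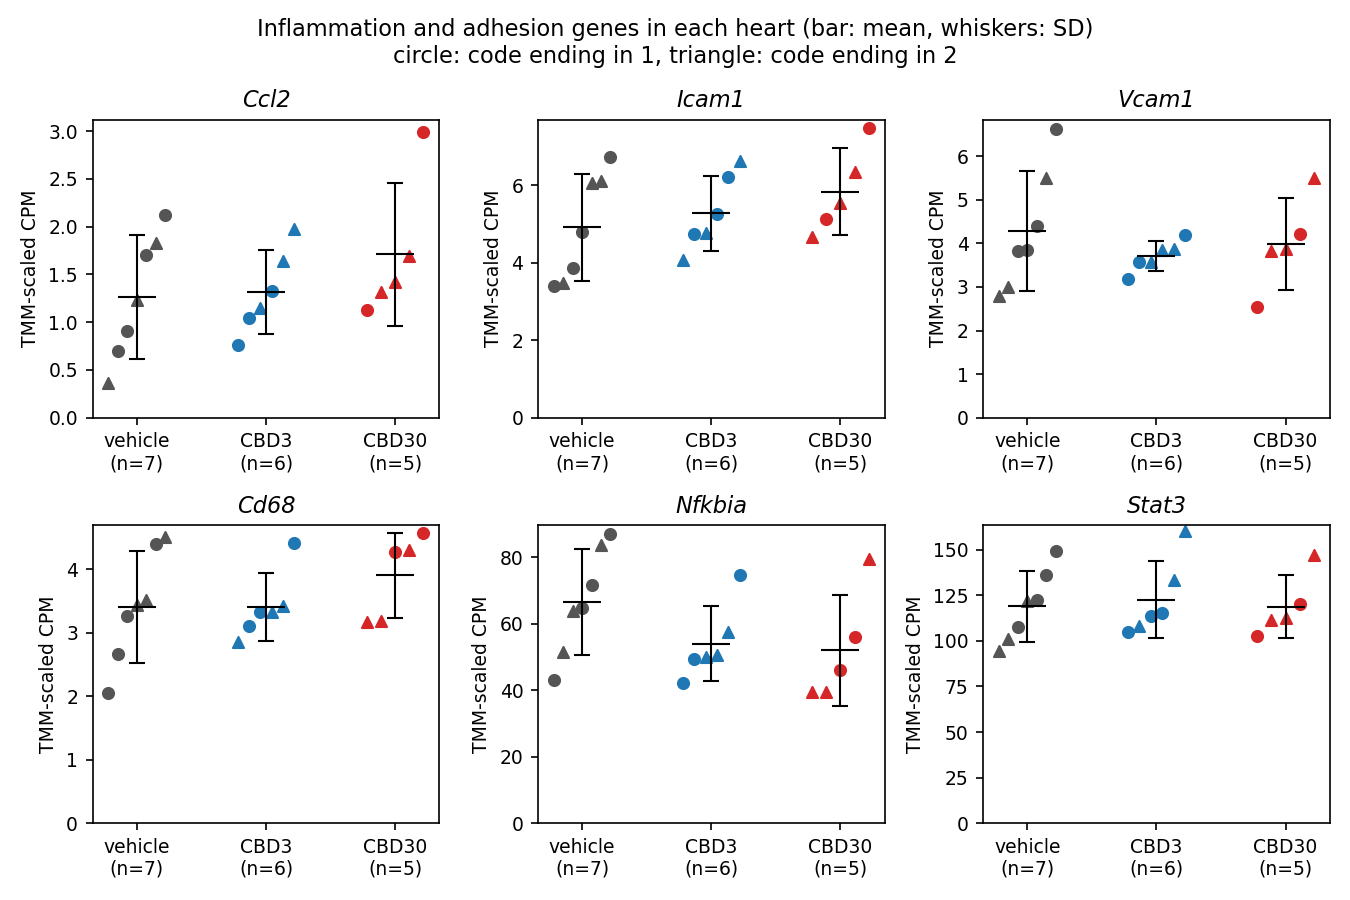
Expression of the 6 genes in each of 18 hearts. The vertical axis is the TMM-scaled level in CPM, each point is a heart, the bar is the group mean and the whiskers its SD. The 3 groups overlap for each gene, and CBD30 1.1 stands at the top for Ccl2, at 2.99 CPM.

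Ccl2, the monocyte chemoattractant, had the fewest counts, with 14 to 256 counts per library, and varied most between hearts. Levels are given in CPM, counts scaled to library size with TMM factors. In vehicle hearts the level ran from 0.359 CPM in vehicle 1.2 through a median of 1.23 to 2.13 CPM in vehicle 1.1. CBD3 hearts had 0.760 CPM at the lowest, 1.24 at the median and 1.98 at the highest. The 5 CBD30 hearts had 1.13, 1.31, 1.42, 1.70 and 2.99 CPM. The highest CBD30 heart, coded 1.1, lay above every other heart of the study, and the other 4 lay inside the vehicle range. Group means were 1.26 ± 0.648 CPM (SD, n = 7) for vehicle, 1.32 ± 0.437 CPM (n = 6) for CBD3 and 1.71 ± 0.745 CPM (n = 5) for CBD30. The log2 fold change was 0.43 ± 0.35 (SE; edgeR adjusted p = 0.528) for CBD30 and 0.049 ± 0.34 (edgeR adjusted p = 0.958) for CBD3 against vehicle. The 95% interval for CBD30 ran from 0.814-fold to 2.24-fold of vehicle, so a doubling was not resolved from no change. Without the CBD30 heart coded 1.1, which is replicate 1, the log2 fold change against vehicle was 0.13. The order of the means was vehicle, CBD3, CBD30, and neighbours in that order differed by less than the spread between hearts.

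Icam1, the endothelial receptor for leukocyte integrins that supports firm adhesion, followed the same order of means. Vehicle hearts had 3.40 to 6.73 CPM with a median of 4.79, and CBD3 hearts had 4.08 to 6.64 CPM with a median of 5.01. The CBD30 hearts had 4.67, 5.14, 5.55, 6.36 and 7.50 CPM. Of the 5 CBD30 hearts 4 lay above the vehicle median, and 1, again the heart coded 1.1, lay above all vehicle hearts. The means were 4.92 ± 1.38 CPM (SD, n = 7) for vehicle, 5.28 ± 0.973 CPM (n = 6) for CBD3 and 5.84 ± 1.11 CPM (n = 5) for CBD30. The log2 fold change was 0.25 ± 0.18 (SE; edgeR adjusted p = 0.494) for CBD30 and 0.10 ± 0.18 (edgeR adjusted p = 0.813) for CBD3 against vehicle. The 95% interval for CBD30 ran from 0.909-fold to 1.55-fold. Without CBD30 1.1, replicate 1, the CBD30 value was 0.14. With single hearts left out, the CBD3 value ran from 0.027 (without CBD3 replicate 6) to 0.19 (without vehicle 1.1).

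Vcam1, the adhesion receptor bound by the alpha-4 integrins of monocytes and lymphocytes, did not share that order. It ran from 2.80 to 6.64 CPM in vehicle hearts with a median of 3.85, and from 3.18 to 4.2 CPM in CBD3 hearts with a median of 3.72. The CBD30 hearts had 2.54, 3.83, 3.87, 4.22 and 5.50 CPM. The lowest heart of the study was CBD30 2.1 and the highest was vehicle 1.1, while the CBD3 hearts all lay inside the vehicle range. Means were 4.29 ± 1.37 CPM (SD, n = 7) for vehicle, 3.71 ± 0.351 CPM (n = 6) for CBD3 and 3.99 ± 1.06 CPM (n = 5) for CBD30. The log2 fold change was -0.11 ± 0.20 (SE; edgeR adjusted p = 0.80) for CBD30 and -0.21 ± 0.19 (edgeR adjusted p = 0.649) for CBD3 against vehicle. The coefficient of variation was 9.46% among CBD3 hearts, 32.0% among vehicle and 26.6% among CBD30 hearts, and that difference in spread was not tested. Without vehicle 1.1 alone the CBD3 log2 fold change was -0.074. Without vehicle 1.1, vehicle 2.1 and CBD30 2.1, the CBD30 log2 fold change was 0.15 (edgeR adjusted p = 0.954), on the other side of 0.

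**Figure D2:**
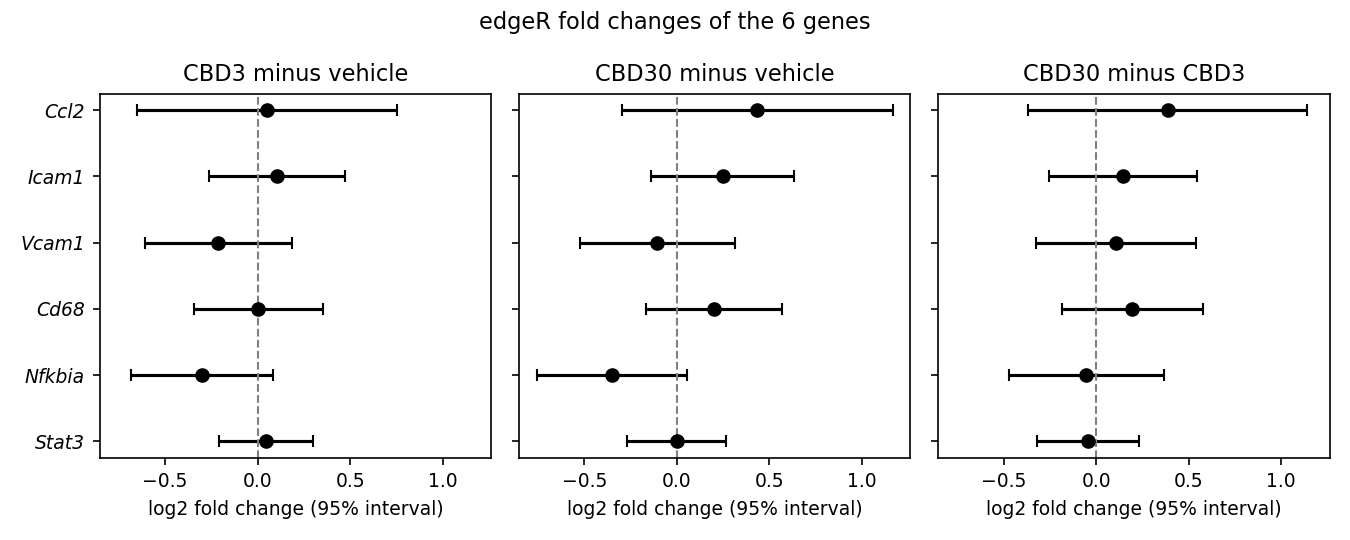
Log2 fold changes of the 6 genes in the 3 comparisons, as points with 95% intervals from edgeR. All 18 intervals cross 0, and those of Ccl2 are the widest.

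Cd68, the macrophage lysosomal marker, had its highest mean in CBD30 hearts, with nearly the same mean in vehicle and CBD3 hearts. Vehicle hearts had 2.05 to 4.50 CPM with a median of 3.44, and CBD3 hearts had 2.85 to 4.41 CPM with a median of 3.32. The CBD30 hearts had 3.17, 3.19, 4.26, 4.30 and 4.57 CPM. They fell into a pair below the vehicle median and 3 values above it, of which 1 exceeded all vehicle hearts. Means were 3.40 ± 0.875 CPM (SD, n = 7) for vehicle, 3.41 ± 0.533 CPM (n = 6) for CBD3 and 3.90 ± 0.666 CPM (n = 5) for CBD30. The log2 fold change was 0.20 ± 0.18 (SE; edgeR adjusted p = 0.562) for CBD30 and 0.0043 ± 0.17 (edgeR adjusted p = 0.994) for CBD3 against vehicle. The 95% interval for CBD30 ran from 0.889-fold to 1.48-fold, and for CBD3 from 0.787-fold to 1.28-fold. Without vehicle 4.1 the CBD30 value was 0.10, and without the 3 hearts farthest out on the first component it was 0.063 (edgeR adjusted p = 0.987).

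Nfkbia, the inhibitor that holds NF-kB in the cytoplasm, had the smallest unadjusted p of the list against vehicle for each dose. Vehicle hearts had 42.9 to 87.1 CPM with a median of 64.6, and CBD3 hearts had 42.1 to 74.7 CPM with a median of 50.2. The CBD30 hearts had 39.3, 39.6, 46.02, 56.1 and 79.3 CPM. Below the vehicle median lay 5 of 6 CBD3 and 4 of 5 CBD30 hearts, but only 1 CBD3 heart and 2 CBD30 hearts lay below the lowest vehicle heart. The means were 66.5 ± 16.01 CPM (SD, n = 7) for vehicle, 54.0 ± 11.3 CPM (n = 6) for CBD3 and 52.1 ± 16.7 CPM (n = 5) for CBD30. The log2 fold change was -0.35 ± 0.19 (SE; edgeR adjusted p = 0.361) for CBD30 and -0.30 ± 0.18 (edgeR adjusted p = 0.565) for CBD3 against vehicle. The 95% intervals ran from 0.591-fold to 1.04-fold for CBD30 and from 0.623-fold to 1.06-fold for CBD3. Neither difference passed the test, and for CBD30 the p-value of Nfkbia ranked 3985 among the 17009 genes. Without CBD30 replicate 3, the heart coded 1.2 and the highest of its group, the CBD30 value was -0.55 and did not pass the test either.

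Stat3, the transcription factor of interleukin-6 type signalling, was measured most precisely, with 3936 to 11591 counts per library. It ran from 94.5 to 149.3 CPM in vehicle hearts with a median of 121.6, and from 105.0 to 160.2 CPM in CBD3 hearts with a median of 114.4. The CBD30 hearts had 102.8, 111.5, 112.4, 120.2 and 147.3 CPM. Each dose group held 1 heart well above its others, CBD3 3.2 and CBD30 4.2, and CBD3 3.2 alone exceeded all vehicle hearts. The means were 118.9 ± 19.5 CPM (SD, n = 7) for vehicle, 122.6 ± 20.9 CPM (n = 6) for CBD3 and 118.8 ± 17.1 CPM (n = 5) for CBD30. The log2 fold change was -0.00077 ± 0.13 (SE; edgeR adjusted p = 0.998) for CBD30 and 0.044 ± 0.12 (edgeR adjusted p = 0.888) for CBD3 against vehicle. The 95% intervals, 0.831-fold to 1.203-fold and 0.865-fold to 1.23-fold, were the narrowest of the list.

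Between the doses, log2 fold changes of CBD30 against CBD3 ran from -0.053 ± 0.20 (SE) for Nfkbia to 0.39 ± 0.36 for Ccl2. Their edgeR adjusted p-values were all 0.999. Without CBD30 replicate 1 the values between doses were 0.080 for Ccl2 and 0.038 for Icam1, which was at 0.15 with all hearts. The 95% interval for Ccl2 ran from 0.774-fold to 2.21-fold and that for Stat3 from 0.80-fold to 1.17-fold. An exact two-sided permutation test of mean log2 CPM over samples, run for 6 genes in 3 comparisons, gave p from 0.138 (Nfkbia, CBD30 against vehicle) to 0.968 (Stat3, CBD30 against vehicle), and adjusted p from 0.828 to 0.968 over the 18 tests.

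**Figure D3:**
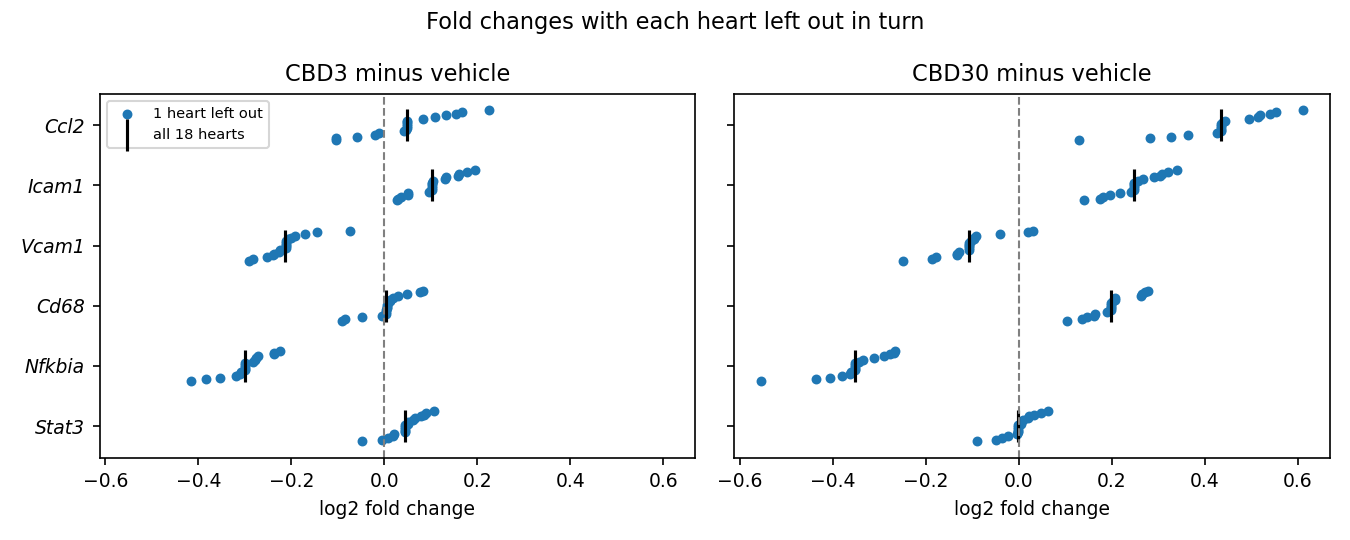
Log2 fold changes against vehicle with each of 18 hearts left out in turn (points) and with all hearts (vertical marks). Nfkbia stayed below 0 for both doses, at -0.55 to -0.27 for CBD30 and -0.42 to -0.22 for CBD3, while Stat3 moved across 0.

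Within hearts whose code ended in 1 (2 CBD30, 3 CBD3, 4 vehicle) and in those ending in 2 (3 of each group), the dose differences were measured apart. Nfkbia was lower than vehicle in both sets, with log2 fold changes of -0.38 ± 0.31 and -0.33 ± 0.29 (SE) for CBD30 and of -0.27 ± 0.27 and -0.33 ± 0.29 for CBD3. Ccl2 was higher for CBD30 in both sets, at 0.61 ± 0.51 and 0.36 ± 0.51, but for CBD3 it was -0.38 ± 0.47 in the first and 0.47 ± 0.50 in the second. Stat3 had opposite signs, at -0.21 ± 0.17 and 0.23 ± 0.16 for CBD30 and at -0.21 ± 0.15 and 0.34 ± 0.16 for CBD3. Vcam1 was at -0.47 ± 0.30 and 0.22 ± 0.28 for CBD30, and Cd68 at 0.52 ± 0.25 and -0.11 ± 0.24. For CBD3 Vcam1 was at -0.36 ± 0.26 and -0.0017 ± 0.28, and Cd68 at 0.23 ± 0.22 and -0.26 ± 0.24. Icam1 was at 0.43 ± 0.28 and 0.078 ± 0.28 for CBD30, and at 0.20 ± 0.25 and -0.019 ± 0.27 for CBD3. Across the 6 genes, 11 of 18 fold changes, those between the doses included, differed in sign between the sets. The 18 are not independent, because each group enters more than 1 comparison, and the share of all tested genes was not measured. None of the within-set values of the 6 genes passed the test, with edgeR adjusted p-values from 0.20 to 1.0. In the test of the difference between sets, the Stat3 value for CBD3 had an unadjusted p of 0.0252 (edgeR interaction, adjusted p = 0.532), the only 1 of 18 under 0.05. Of all tested genes 9.02% were under 0.05 in that interaction, 12.9% in the one for CBD30 against vehicle and 2.39% in the one between doses.

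The spread between hearts within groups was summarised by the biological coefficient of variation, edgeR's estimate of variation beyond counting error. It was 41.2% for Ccl2, against 31.8% on the trend for genes of its abundance, and 23.3% for Nfkbia against a trend of 16.8%. Cd68 (21.7% against 26.6%), Icam1 (22.7% against 24.4%), Vcam1 (24.3% against 25.9%) and Stat3 (15.9% against 16.7%) lay below their trend. The highest heart exceeded the lowest by 8.32-fold for Ccl2, 2.62-fold for Vcam1, 2.23-fold for Cd68, 2.21-fold for Nfkbia, 2.202-fold for Icam1 and 1.70-fold for Stat3. Single hearts were high or low for several of the genes. Vehicle 1.1 was the highest vehicle heart for Ccl2, Icam1, Vcam1 and Stat3, 4 of the 6 genes, and vehicle 1.2 was among the 2 lowest of all 18 hearts for the same 4.

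Hearts with more Ccl2 also had more Icam1 by Pearson r, a call that was lost when a few hearts were left out and that Spearman rho did not pass. Over 18 hearts, log2 CPM of Ccl2 and Icam1 had a Pearson r of 0.69 (permutation p = 0.00115, adjusted p = 0.0173 over 15 pairs of members) and a Spearman rho of 0.65 (permutation p = 0.00454, adjusted p = 0.0681). It was 0.72 in the 9 hearts coded with a final 1 and 0.67 in the 9 with a final 2, and 0.65 after group means were subtracted (adjusted permutation p = 0.0435). Without CBD30 1.1 and vehicle 1.2, the hearts farthest from the median of Ccl2, r was 0.50 (permutation p = 0.0515, adjusted p = 0.571), and the call was lost. It was also lost without the 3 hearts farthest out on the first component, where both of those hearts were kept, at r = 0.62 (adjusted permutation p = 0.171).

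The pair of adhesion receptors, and Ccl2 with Vcam1, did not pass the adjusted threshold. Icam1 and Vcam1 had r = 0.46 (permutation p = 0.0557, adjusted p = 0.278; rho = 0.56, permutation p = 0.0167, adjusted p = 0.0991; r = 0.41 without vehicle 1.2 and vehicle 2.1). Ccl2 and Vcam1 had r = 0.49 (permutation p = 0.0377, adjusted p = 0.278; rho = 0.55, permutation p = 0.0198, adjusted p = 0.0991; r = 0.41 without CBD30 1.1 and vehicle 1.2). Within codes ending in 1 and in 2, r was 0.36 and 0.58 for the first of these pairs and 0.41 and 0.59 for the second. After group means were subtracted r was 0.54 (permutation p = 0.0208) for Icam1 with Vcam1 and 0.57 (permutation p = 0.0146) for Ccl2 with Vcam1, each with an adjusted permutation p of 0.104. Whether r differed between pairs was not tested. Of the 15 pairs, 1 passed the adjusted threshold by Pearson r and 0 by Spearman rho, and the other 14 had an absolute r below 0.5. The share of pairs of other tested genes that would pass was not measured. The count is thus not shown to be particular to this list. Nfkbia had r = -0.35 with Ccl2, -0.090 with Icam1 and 0.33 with Vcam1 (permutation p = 0.159, 0.723 and 0.180, adjusted p = 0.386, 0.723 and 0.386), with rho of -0.30, 0.011 and 0.27 (adjusted permutation p = 0.658, 0.967 and 0.683).

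**Figure D4:**
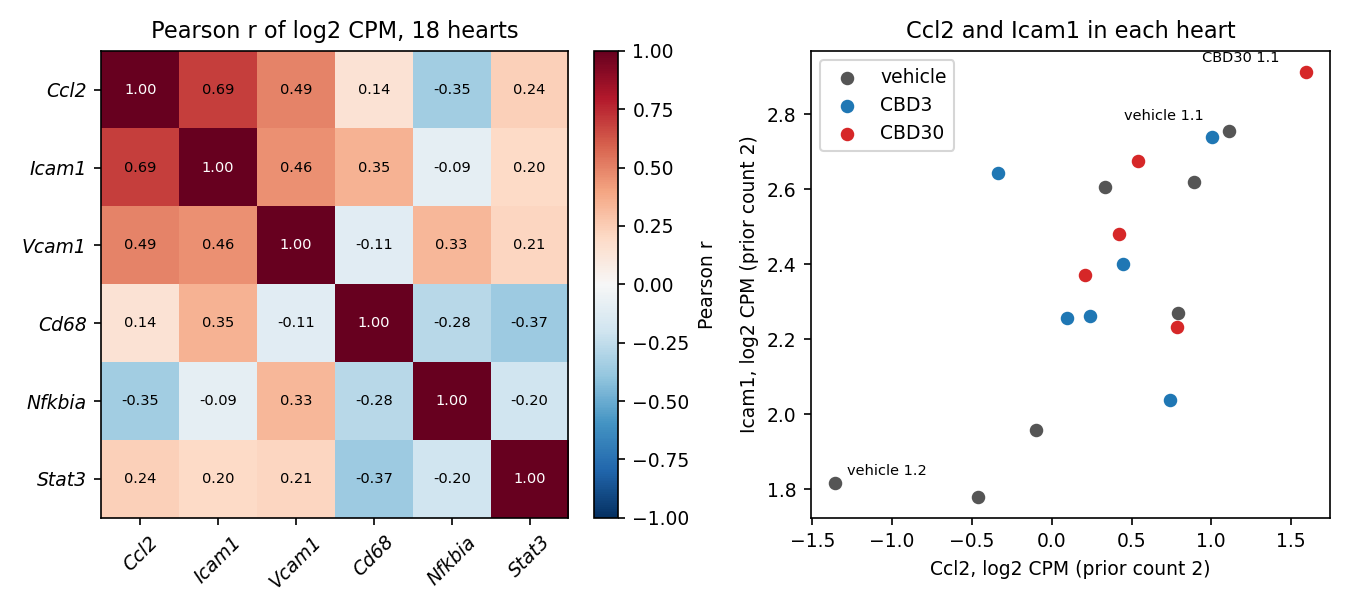
Left, Pearson r of log2 CPM between the 6 genes over 18 hearts, as colour and number. Right, log2 CPM of Icam1 against that of Ccl2 in each heart, coloured by group: r is 0.69, with CBD30 1.1 at the upper right and vehicle 1.2 at the lower left.

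Cd68 varied with the first principal component of the other genes, with r = 0.62 (permutation p = 0.00616, adjusted p = 0.0370 over 6 genes; rho = 0.61, permutation p = 0.00904, adjusted p = 0.0470). Without the 2 hearts farthest out r was 0.65, but it was 0.71 in codes ending in 1 and 0.16 in codes ending in 2. Stat3 went the other way, with r = -0.53 (permutation p = 0.0238, adjusted p = 0.0713; rho = -0.56, permutation p = 0.0157, adjusted p = 0.0470). The r of Stat3 was -0.34 without the 2 hearts farthest out, -0.93 in codes ending in 1 and -0.045 in codes ending in 2. Without the 3 hearts farthest out r was -0.25 for Stat3 and 0.63 for Cd68. For both genes the difference between the sets of codes was not tested. For Ccl2, Icam1, Vcam1 and Nfkbia r was -0.011, 0.25, -0.41 and -0.22 (adjusted permutation p = 0.964, 0.465, 0.187 and 0.472). The component held 29.8% of the variance, and the share of all tested genes with an r as large was not measured. Neither r is thus shown to be particular to Cd68 or Stat3.

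Among the 13526 other genes that averaged 1 CPM or more, no other member of the list was among the 3 most alike for any of the 6. The highest likeness was that of Nfkbia with ENSRNOG00000057078, with a Pearson r of 0.94 and a Spearman rho of 0.93 of log2 CPM over 18 hearts. Next came Stat3 with ENSRNOG00000017003, with r = 0.93 and rho = 0.95. These were picked as the highest of many, so they are a description, and the sources used here do not pair the identifiers with symbols. Genes with r above 0.8 numbered 95 for Stat3 (0.702% of those compared), 19 for Vcam1, 12 for Ccl2, 10 for Icam1, 9 for Nfkbia and 5 for Cd68.

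The start regions of Icam1, Vcam1 and Nfkbia are shown because these genes are known to respond to NF-kB. A further reason was that Icam1 varied with Ccl2 by Pearson r, a call lost when a few hearts were left out. The sequences do not test that correlation. RefSeq (GRCr8) gave a promoter window for 5 of the 6 genes, all but Ccl2. Each line holds the 250 bases before the start site, 5′ to 3′ on the strand of the gene, with motif matches in capitals. In all, 4 motifs were searched on both strands of 300-base windows, which reach 50 bases past the start site: the 10-letter NF-kB consensus, the core GGAAATTCC that overlaps it, TTCNNNGAA, the palindrome bound by STAT proteins, and TATAAA. The core was added after the sequences had been read.
Icam1, chr8:27829595-27829844, plus strand: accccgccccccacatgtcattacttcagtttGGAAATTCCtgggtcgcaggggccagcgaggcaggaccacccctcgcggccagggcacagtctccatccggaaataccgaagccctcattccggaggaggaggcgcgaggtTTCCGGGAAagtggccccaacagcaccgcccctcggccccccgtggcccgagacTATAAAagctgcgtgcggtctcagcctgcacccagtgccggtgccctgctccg
Vcam1, chr2:206742784-206743033, minus strand: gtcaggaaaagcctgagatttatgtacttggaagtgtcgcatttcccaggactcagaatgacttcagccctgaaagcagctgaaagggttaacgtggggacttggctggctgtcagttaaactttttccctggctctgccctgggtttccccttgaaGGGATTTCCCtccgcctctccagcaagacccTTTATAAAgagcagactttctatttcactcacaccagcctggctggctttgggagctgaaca
Nfkbia, chr6:78597073-78597322, minus strand: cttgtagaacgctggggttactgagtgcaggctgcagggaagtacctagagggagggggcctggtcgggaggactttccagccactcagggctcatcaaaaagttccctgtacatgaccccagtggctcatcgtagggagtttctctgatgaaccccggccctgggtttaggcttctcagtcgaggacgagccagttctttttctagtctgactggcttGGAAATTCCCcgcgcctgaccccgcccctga

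In Icam1 the NF-kB consensus had no match. The core GGAAATTCC lay there at positions -218 to -210 from the start site, the STAT-type palindrome, as TTCCGGGAA, at -107 to -99 and TATAAA at -53 to -48. In Vcam1 the NF-kB consensus matched GGGATTTCCC at -93 to -84, and TATAAA matched on both strands between -62 and -55. In Nfkbia the consensus matched the stretch GGAAATTCCC, at -31 to -22, on the opposite strand only. The core matched GGAAATTCC within that stretch, at -31 to -23. TATAAA matched on the opposite strand past the start site, at 18 to 23, outside the printed bases. The windows of Cd68 and Stat3 held none of these 4 motifs. Of 33469 promoter windows of the same length, 7.51% held the NF-kB consensus, 0.332% the core, 8.87% TTCNNNGAA and 14.2% TATAAA. The core was picked from the sequences shown, so its share does not measure how rare its matches in them are. A match is a description of these letters, and no binding was measured.

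**Figure D5:**
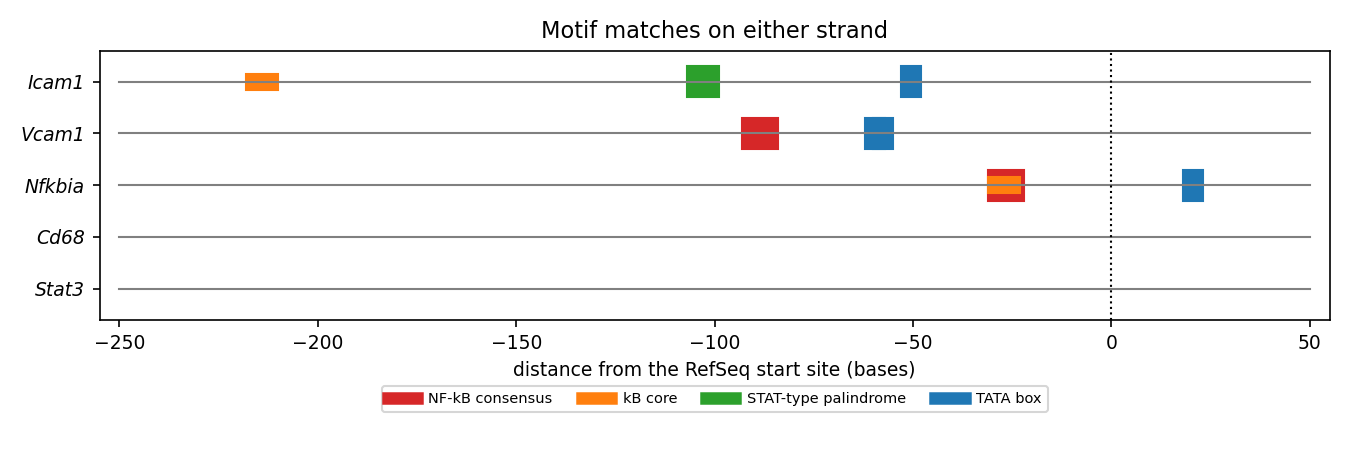
Motif matches in the promoter windows of 5 genes, plotted as distance in bases from the RefSeq start site (dotted line). Vcam1 and Nfkbia hold the NF-kB consensus, and the lines of Cd68 and Stat3 are empty. Icam1 does not hold that consensus but holds the core, a motif added after the sequences had been read. It also holds the STAT-type palindrome and TATAAA.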

How the data were processed

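The table deposited by the authors holds raw whole-number counts for each Ensembl gene in each heart. Per the submitters' processing notes, featureCounts, edgeR and the rat build mRatBN7.2 were used, and per the labels' protocols libraries were stranded after messenger RNA enrichment. For the aligner and the counting settings, nothing is given in the sources used here. A total of 14 columns carry a replicate number. The other 4, vehicle hearts coded 1.1 to 4.1, each match labels of a pair of samples and were used as vehicle hearts without one.

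Genes were kept by filterByExpr (minimum count 10, minimum total count 15), scaled by TMM and compared in 1 fit of 18 hearts with the quasi-likelihood test of edgeR 4.0.16 in R 4.3.3, with Benjamini-Hochberg adjustment over 17009 genes and a threshold of 0.05. Standard errors come from the F statistic. Log2 CPM used a prior count of 2. Correlations used 100000 permutations. Only the edgeR fit was run on simulated data, with counts drawn independently for each heart. These held no effect of litter or code and no shared component, so they do not test the fit under such effects. Alternatives included DESeq2 1.42.0, limma 3.58.1, other scalings and filters, a replicate block and each heart left out. Every library differed from the others of its group by more than counting noise (46 pairs compared, smallest chi-square over its degrees of freedom 34.4). The genes named are the 6 of the list, and from the likeness search at most 2 identifiers, those of highest r. The members and lists were chosen with earlier results of these data known. Lists of related chemokines, receptors, NF-kB and STAT pathway genes and cell type markers were not tested, because no table used here pairs their symbols with the identifiers. Sequences come from RefSeq (GRCr8), and none of its gene coordinates were used for counts.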

Additional observations from a re-analysis of the deposited data

Results flagged for a closer look

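In 18 sets of 5 to 7 hearts (6 genes in 3 groups), 1 heart stood apart from the others of its group by Dixon's test, where chance gives about 1 in 20. Cd68 was at 4.41 CPM in CBD3 2.1 and at 3.41 CPM in the nearest other CBD3 heart, a gap of 0.642 of the group's range (critical value 0.625). Without that heart, which is CBD3 replicate 2, the Cd68 log2 fold change of CBD3 against vehicle was -0.084 (edgeR adjusted p = 0.883).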

How the results depend on the processing

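None of the 18 fold changes (6 genes, 3 comparisons) was called in any of 31 alternatives each. The lowest adjusted p was 0.171, for Nfkbia in CBD30 against vehicle without the vehicle heart coded 3.1 (edgeR). The counts over all genes, 0 in each comparison with edgeR, were 133, 19 and 1 with DESeq2 for CBD30 against vehicle, CBD3 against vehicle and CBD30 against CBD3, and 160, 8 and 1 with DESeq2 on the genes tested with edgeR. With edgeR they were 267 for CBD30 against vehicle without vehicle 3.1, 1 without CBD30 replicate 1, and 1 between the doses when vehicle hearts were left out of the fit; the cause was not tested. The DESeq2 fit on the edgeR genes, the fits without 3 hearts and the fit of the 14 numbered hearts without a block were chosen after the data were seen.

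Of the 18 fold changes, 10 kept their sign in all 31 alternatives. Those alternatives do not include the separate values for each set of codes, where 11 of the 18 differed in sign between the sets. Small values changed sign. Stat3 in CBD30 against vehicle was 0.016 with RLE factors, 0.0026 without a filter, 0.011 with only the groups compared, 0.016 with DESeq2 (0.016 on the edgeR genes), 0.0090 with limma voom, 0.0049 as a difference of mean log2 CPM, 0.18 in the 14 numbered hearts and 0.17 without the 3 hearts farthest out. With library size only, CBD3 against vehicle was -0.0079 for Ccl2, -0.033 for Cd68 and -1.8e-05 for Stat3. Cd68 in CBD3 against vehicle was -0.0019 with at least 1 CPM in 5 samples, -0.15 in the 14 numbered hearts and -0.068 without the 3 hearts. Vcam1 in CBD30 against vehicle was 0.088 and 0.15 in those last fits, and Stat3 in CBD30 against CBD3 was 0.0027 without the 3 hearts.

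With hearts left out in turn, fold changes that changed sign ranged from -0.089 to 0.062 (Stat3) and -0.25 to 0.032 (Vcam1) for CBD30 against vehicle. For CBD3 against vehicle they ranged from -0.10 to 0.22 (Ccl2), -0.091 to 0.084 (Cd68) and -0.047 to 0.11 (Stat3). For CBD30 against CBD3 they ranged from -0.25 to 0.063 (Nfkbia), -0.13 to 0.046 (Stat3) and -0.037 to 0.23 (Vcam1). Ccl2 in CBD30 against vehicle ran from 0.13 to 0.61.

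The replicate block could use only the 14 numbered hearts. CBD30 and vehicle share 1 number among them, and CBD3 and vehicle share 2. The block called 0 genes. For CBD30 against vehicle it gave Ccl2 1.48, Icam1 0.48, Vcam1 0.10, Cd68 0.072, Nfkbia -0.66 and Stat3 0.54. For CBD3 against vehicle it gave Ccl2 0.93, Icam1 0.25, Vcam1 -0.033, Cd68 -0.15, Nfkbia -0.57 and Stat3 0.53. Between doses Stat3 was 0.012, and the block values ran from -0.090 (Nfkbia) to 0.56 (Ccl2). The lowest adjusted p for these genes under the block was 0.288 (edgeR). Same-numbered CBD3 and CBD30 hearts had correlated deviations of -0.0767 to 0.308 over 5 pairs, above 0.1 in 2 of them, so hearts were not treated as pairs. Of 10 hearts 5 correlated best with their own number, and whether that exceeds chance was not tested. Most same-numbered hearts also share the last digit of the code, for which the deviations were not corrected. The count comes from the data and not from the design.

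Of 15 pairs of genes, the 1 called by Pearson r (Ccl2 with Icam1) became 0 without the 2 hearts farthest from the median and 0 without the 3 hearts farthest out. Signs changed for Cd68 with Vcam1 (0.012 and 0.29 in those fits), Stat3 with Vcam1 (-0.020 and -0.15), Stat3 with Icam1 (-0.094 without 2 hearts) and Nfkbia with Icam1 (0.065 with group means subtracted). Ccl2 had the fewest counts, 14 in its lowest library, and its variation between hearts beyond counting error was 41.2%.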
